A study of Mus musculus with 6 samples.

Results

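The 9 genes described here encode proteins that release, store, take up, exchange or respond to calcium in the cardiomyocyte. They are *Ryr2*, *Casq2*, *Trdn*, *Hrc*, *Jph2*, *Atp2a2*, *Pln*, *Slc8a1* and *Camk2d*. They were matched by symbol from a list of known calcium handling genes, a list drawn up with earlier results of these data known, and are 9 of the 24346 genes listed for the hearts. The hearts came from male C57BL/6J mice in 3 groups with 2 libraries each. The C group was fed normal chow, the N group a diet rich in fat, cholesterol and sucrose with bile acid (NASH diet), and the NP group the NASH diet with 0.1 mg/kg pemafibrate, an agonist of the nuclear receptor PPARα. The labels give 3 weeks of feeding and the study's methods a longer period. No transgene or deletion is named in any group, and neither source states the age of these mice. The labels do not say whether the 2 libraries of a group are separate mice, so the *P* values measure only the spread between these libraries.

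In each heartbeat, a small inflow of calcium through L-type channels in the T-tubule opens ryanodine receptors in the facing sarcoplasmic reticulum, which release the calcium that drives contraction. Relaxation follows when a calcium pump returns the ion to the reticulum and a sodium-calcium exchanger carries the rest out of the cell. Phospholamban holds the pump back until it is phosphorylated, and kinases adjust release and uptake. Loss of function or altered levels of these proteins are known from arrhythmia and heart failure.

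The 6 libraries differed in ways that touch the 9 genes. The 12 contractile genes of the cardiomyocyte summed to between 77629 and 105845 FPKM (fragments normalised by transcript length and mapped reads), so the defining markers of the labelled tissue, heart, were high in every library, although the extraction note in the labels names liver. Libraries of the C group had an estimated 21500000 to 26100000 reads, against 8190000 to 8750000 in the other 4, so depth and diet cannot be told apart between the C group and the others. A list of 8 hepatocyte genes summed to 46.2 to 575 FPKM in the C group and 2.29 to 9.55 in the N and NP groups. The sum of 10 atrial genes was 253 to 364 FPKM in C, 3624 to 4980 in N and 3690 to 5993 in NP. Macrophage genes summed to 365 to 491 FPKM in the N group, 194 to 228 in the C group and 163 to 190 in the NP group. Of the atrial genes 1 was at 0, in C replicate 1, and of the hepatocyte genes 4 and 3 were at 0 in the N libraries and 2 in NP replicate 2. The part of these markers in the results on the 9 genes was not tested.

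All 9 genes were well above the level at which a gene was tested, a mean of 0.5 FPKM. *Atp2a2* had the highest level, and ranked 11 among the 12923 genes tested by mean FPKM, with *Pln* at rank 15. *Hrc* ranked 148, *Casq2* 193, *Ryr2* 487, *Jph2* 498, *Trdn* 1026, *Camk2d* 2034 and *Slc8a1* 2446. In this order, neighbours whose ranges over the 6 libraries overlapped were *Hrc* and *Casq2*, *Ryr2* and *Jph2*, and *Camk2d* and *Slc8a1*. Within a library, *Hrc* was above *Casq2* and *Camk2d* above *Slc8a1* in 6 of 6 libraries, whereas *Ryr2* was above *Jph2* in 3 of 6. Together, the 9 genes took 1.49% and 1.56% of all FPKM in C, 1.69% and 1.63% in N and 1.88% and 1.74% in NP. That share was mostly *Atp2a2* and *Pln*. The 9 genes summed to 9350 and 10199 FPKM in C, 9335 and 9436 in N and 10334 and 10422 in NP. The total over all genes was 625457 and 652311 FPKM in C, but only 553956 and 577233 in N and 548411 and 598867 in NP. The higher share in N than in C thus came with a lower total and not with a higher sum of the 9 genes. Even *Slc8a1*, the lowest of the 9, had an estimated 228 reads per kilobase of transcript in its least covered library, N replicate 2.

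**Figure D1:**
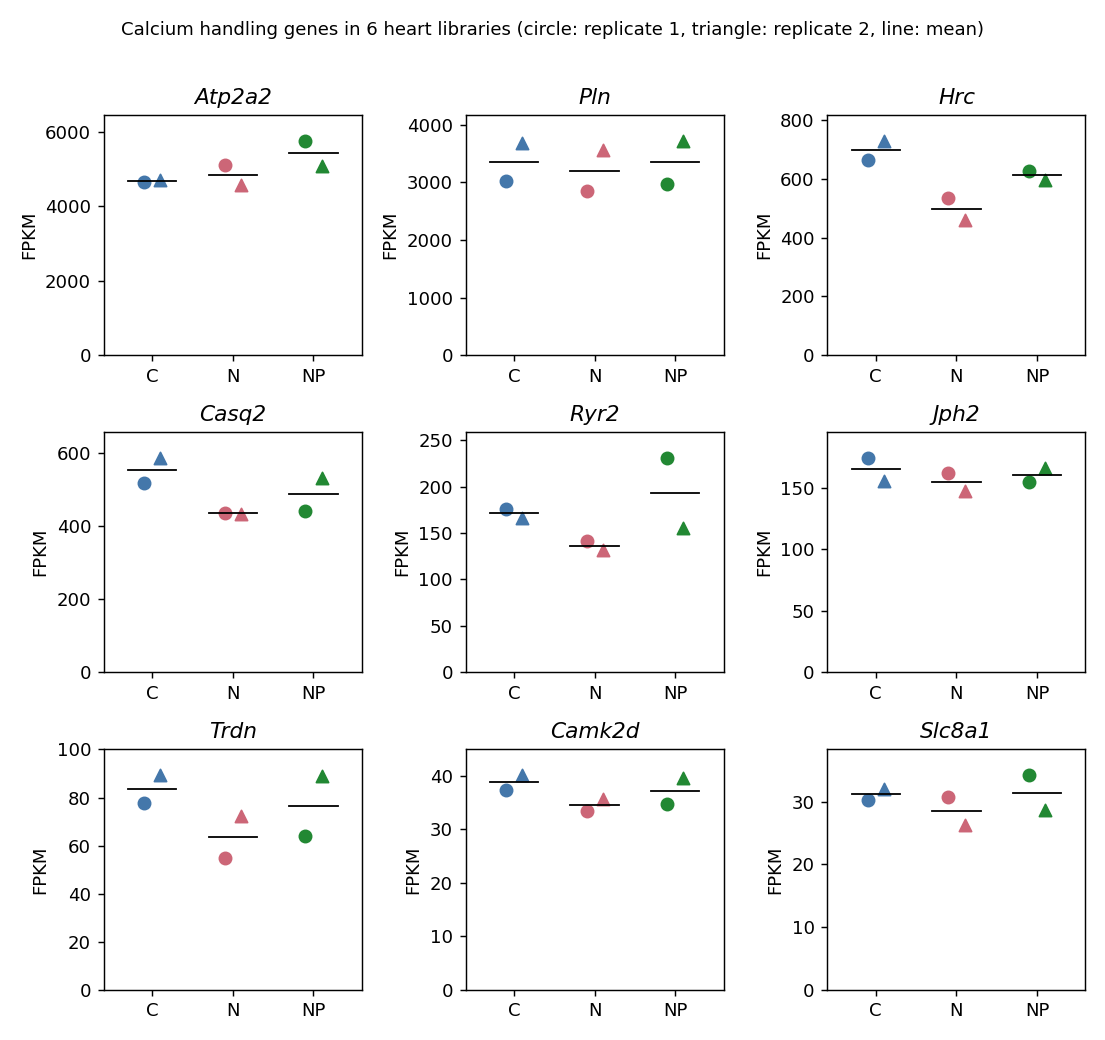
FPKM of the 9 calcium handling genes in each library (vertical axes, FPKM, each starting at 0) for the C, N and NP groups. Circles are replicate 1, triangles replicate 2 and lines the group means. *Hrc*, *Casq2* and *Ryr2* are lower in both N libraries than in any C or NP library, while *Pln* is higher in replicate 2 of each group.

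The upstream sequences of 3 members are shown because the genes sit on unlike promoters although they work in one cycle. Each is the 250 bases before the RefSeq start of the gene in GRCm38.p6 (the mm10 build), read 5′ to 3′ on the strand of the gene. *Pln*, the pump's inhibitor, has the sequence of chr10:53337436-53337685 (plus strand), with a TATAAA element well upstream of the start and an AGATAA element (the GATA core, read on the other strand) in capitals. *Casq2*, the calcium buffer, has that of chr3:102086165-102086414 (plus strand), with a match to the MEF2 site in capitals. *Ryr2*, the release channel, has that of chr13:12106946-12107195 (minus strand), with AGGTCA, the core of nuclear receptor sites, in capitals.
Pln: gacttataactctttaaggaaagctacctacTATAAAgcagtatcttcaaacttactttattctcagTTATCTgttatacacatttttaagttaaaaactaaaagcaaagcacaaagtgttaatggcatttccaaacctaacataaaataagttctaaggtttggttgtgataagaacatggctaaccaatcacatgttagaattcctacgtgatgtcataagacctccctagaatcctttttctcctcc
Casq2: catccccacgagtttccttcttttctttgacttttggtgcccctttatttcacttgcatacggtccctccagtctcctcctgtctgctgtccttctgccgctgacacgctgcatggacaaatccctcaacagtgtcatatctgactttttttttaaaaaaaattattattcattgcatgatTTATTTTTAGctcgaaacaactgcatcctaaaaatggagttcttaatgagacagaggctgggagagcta
Ryr2: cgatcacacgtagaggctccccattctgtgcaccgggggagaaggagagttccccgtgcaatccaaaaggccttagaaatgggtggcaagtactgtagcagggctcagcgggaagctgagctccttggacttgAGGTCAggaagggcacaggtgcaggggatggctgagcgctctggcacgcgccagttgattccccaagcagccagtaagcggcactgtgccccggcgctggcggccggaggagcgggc
The G and C content was 32.8% for *Pln*, 41.6% for *Casq2* and 63.2% for *Ryr2*. Of the 9 members, 7 had an entry in the promoter table, and *Atp2a2* and *Trdn* are named only. Over both strands, TATAAA was found in 12.4% of all 32851 promoters of the same length and among the 7 in *Pln*. AGATAA was in 9.99% of all promoters and in *Pln* and *Slc8a1*, AGGTCA in 14.0% and in *Ryr2* and *Jph2*, and the MEF2 site in 2.92% and in *Casq2*. GGGCGG, the core of GC boxes, was in 32.7% of all promoters and in *Camk2d*, *Hrc* and *Jph2*, AGGTGTG, a T-box element, in 5.1% and in *Camk2d*, and the CArG box in 1.47% and in none of the 7. These matches describe letters and are not evidence of binding.

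The first comparison, N against C, asks what the NASH diet did to these genes. No member passed the test at an adjusted *P* of 0.05 in limma, where 1.55% of all genes tested did, 191 higher and 9 lower in the N group. This split was not stable, with 137 higher and 90 lower without a filter on low values, and 88 higher and 95 lower without C replicate 1. Of the 9 members, 8 had a lower mean log2 level in the N group, with a median difference of -0.16 against -0.03 for all genes, and 55.1% of all genes were lower. Scaling turns this direction for part of the members. With each library scaled to the same total FPKM, 4 of 9 were lower and the median of all genes was 0.12. For values relative to the contractile list, the median log2 level of the 12 contractile genes was subtracted in each library. There 1 of 9 was lower and the median of all genes was 0.46. In 5 members (*Hrc*, *Casq2*, *Ryr2*, *Trdn* and *Camk2d*), both N libraries lay below both C libraries, which held for 27% of all genes tested. At an unadjusted *P* under 0.05, 2 members were lower (*Hrc* and *Casq2*), beside 6.76% of all genes.

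The 4 genes of release (*Hrc*, *Trdn*, *Casq2* and *Ryr2*) had the largest differences of the 9 between N and C in the values as deposited. *Hrc* encodes a histidine-rich protein of the reticulum lumen that binds calcium and interacts with triadin and the pump. It lies on chromosome 7 (45335269 to 45338973). *Hrc* was at 665 and 730 FPKM in C, 534 and 460 in N and 628 and 596 in NP. Both N libraries were thus the lowest of the 6, and the NP libraries lay between the N and C groups without overlap. Its N level was 0.71 times the C level (95% interval 0.576 to 0.879) on the log2(FPKM + 1) scale, a difference of -0.49 ± 0.12 (SE, limma, unadjusted *P* = 0.00769, adjusted *P* = 0.149). The 12 contractile genes had a median difference of -0.35 between N and C, with 9 lower without overlap and *Actc1* level (-2.1e-05). Scaling relative to this list uses the median level of the 12 genes in each library, not the median of their differences. Its shift was larger than that median difference, and moved the median of all genes from -0.03 to 0.46. Relative to this contractile list, the difference in *Hrc* was -0.003. With the replicate number as a block between N and NP, *Hrc* passed the test between N and C (limma, adjusted *P* = 0.0329), as did 1100 genes in all. Between the NP and N groups it was 0.30 ± 0.12 (SE, limma, adjusted *P* = 0.624).

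*Casq2* encodes cardiac calsequestrin, the main calcium buffer of the reticulum, and lies on chromosome 3 (102086415 to 102146514). It was at 519 and 588 FPKM in C, 436 and 435 in N and 444 and 534 in NP. The N libraries were nearly equal and the lowest of the 6, and NP replicate 1 lay just above them. The difference between the N and C groups was -0.34 ± 0.13 (SE, log2, limma, unadjusted *P* = 0.0439, adjusted *P* = 0.314), and relative to the contractile list it was 0.15. From N to NP it was 0.16 (adjusted *P* = 0.935), which relative to the contractile list was -0.05.

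*Trdn* encodes triadin, which anchors calsequestrin to the release channel, and lies on chromosome 10 (33083483 to 33476709). Its FPKM were 77.7 and 89.4 in C, 54.7 and 72.3 in N and 64.1 and 89.0 in NP. Replicate 2 was higher than replicate 1 in each group, by 0.20 on the log2 scale in C, 0.39 in N and 0.47 in NP, so the spread within a group was about as large as the differences between groups. The difference between the N and C groups was -0.40 ± 0.21 (SE, log2, limma, adjusted *P* = 0.442), which relative to the contractile list was 0.09. The NP and N libraries overlapped (0.26, adjusted *P* = 0.925).

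*Ryr2* encodes the cardiac ryanodine receptor, the release channel itself, on chromosome 13 (11553099 to 12106945). It was at 175 and 167 FPKM in C, 141 and 131 in N and 231 and 155 in NP. The N libraries were again the lowest of the 6, and the NP libraries lay on either side of the C group. The log2 difference from C to N was -0.32 ± 0.20 (SE, limma, adjusted *P* = 0.497), and relative to the contractile list it was 0.16. From N to NP it was 0.47 ± 0.20 (SE, limma, unadjusted *P* = 0.0538, adjusted *P* = 0.645), the largest of the 9 and above that of 98.4% of all genes, a fold of 1.38 (95% interval 0.993 to 1.93). NP replicate 1 carried much of it, since without that library the difference was 0.18. The longest annotated *Ryr2* transcript has 16814 bases. Over the 294 genes with transcripts above 10 kb, NP replicate 1 exceeded NP replicate 2 by a median of 0.12 (log2) and the NP group exceeded the N group by 0.10, and with the trend on transcript length removed the *Ryr2* difference was 0.34. The part of transcript length in the result was otherwise not tested.

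*Jph2* encodes junctophilin 2, which ties the T-tubule to the reticulum, on chromosome 2 (163336242 to 163398049). It was at 174 and 155 FPKM in C, 162 and 147 in N and 155 and 166 in NP. The 3 groups overlapped throughout. Its log2 difference was -0.09 between N and C (95% interval -0.38 to 0.19) and 0.05 between NP and N (95% interval -0.23 to 0.34). At the same total the first was 0.08, and relative to the contractile list the pair was 0.40 and -0.16.

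In the values as deposited, both uptake genes overlapped between the N and C groups. *Atp2a2* encodes SERCA2, the calcium pump of the reticulum, on chromosome 5 (122453513 to 122502225). It was at 4642 and 4706 FPKM in C, 5098 and 4564 in N and 5762 and 5089 in NP. It was the one member whose mean was not lower in the N group (0.05, 95% interval -0.26 to 0.35). That difference was 0.22 at the same total, 0.26 under quantile normalization and 0.53 relative to the contractile list, where it passed the test (limma, adjusted *P* = 0.0249) as 5582 of 12923 genes did. Both NP libraries were above both C libraries, by 0.21 ± 0.12 (SE, limma, adjusted *P* = 0.722), and against the N group the difference was 0.17 (adjusted *P* = 0.911), which turned to -0.06 under quantile normalization and -0.04 relative to the contractile list. Between the NP and C groups 0.0387% of all genes were called, and none of the 9 members was.

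*Pln* encodes phospholamban and lies on chromosome 10 (53337686 to 53345999). It was at 3029 and 3691 FPKM in C, 2845 and 3565 in N and 2981 and 3726 in NP. Replicate 2 exceeded replicate 1 by 0.28 (log2) in C, 0.33 in N and 0.32 in NP, and the groups overlapped. With the values as deposited, no difference between groups came near that gap. It was -0.07 between N and C (95% interval -0.53 to 0.39, with 0.11 at the same total, 0.26 under quantile normalization and 0.42 relative to the contractile list), and 0.07 between NP and N (95% interval -0.39 to 0.53). The ratio of *Pln* to *Atp2a2*, computed after the values were seen, was 0.653 and 0.784 in C, 0.558 and 0.781 in N and 0.517 and 0.732 in NP, again with overlap of all groups.

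The pump has a further inhibitor in sarcolipin, a small membrane protein that the mouse heart makes mainly in its atria. Its gene *Sln* (chromosome 9, 53850251 to 53853849) was the one gene past the test among 84 further calcium handling genes. It was listed at 0 and 0.450 FPKM in C, and stood at 250 and 462 in N and 287 and 518 in NP. The groups on the NASH diet were thus far apart from the C group and overlapped each other. The fitted log2 difference was 8.15 ± 0.40 for N against C (SE, limma, adjusted *P* = 0.00104), 8.33 for NP against C (adjusted *P* = 0.00658) and 0.18 for NP against N (adjusted *P* = 0.994), and its size depends on the pseudocount of 1, since the C group was at or near 0. Without a filter on low values the NP against C call was lost (adjusted *P* = 0.0766), and over all other alternatives its adjusted *P* stayed under 0.05 against the C group. Relative to phospholamban, *Sln* was at 0.0880 and 0.129 of the *Pln* level in the N group and 0.0962 and 0.139 in the NP group. All 10 genes of the atrial list were higher in the N than in the C group, 6 of them past the test, with a median difference of 3.61, and in the NP group 10 were higher than in the C group, 3 past the test. The part of atrial tissue in the *Sln* result was not tested.

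**Figure D2:**
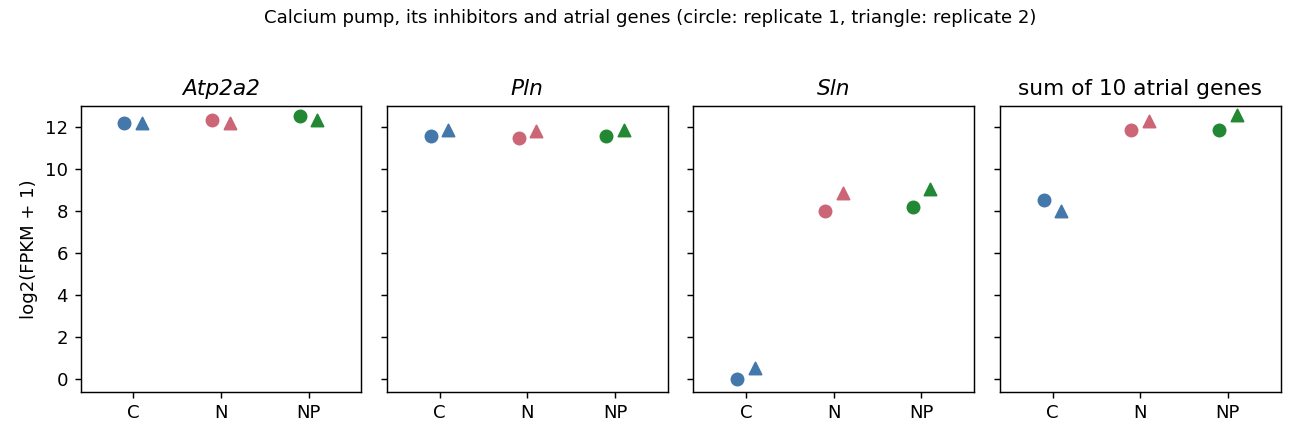
Level of the calcium pump *Atp2a2*, of its inhibitors *Pln* and *Sln*, and of the sum of 10 atrial genes, as log2(FPKM + 1), in the C, N and NP groups (circles replicate 1, triangles replicate 2). *Atp2a2* and *Pln* stand at similar heights in all 6 libraries, while *Sln* is at 0 and 0.450 FPKM in the C group and 250 to 518 in the others, as the atrial sum is higher there too.

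*Slc8a1* encodes the sodium-calcium exchanger NCX1, which removes calcium across the sarcolemma, on chromosome 17 (81373105 to 81738387). It was at 30.3 and 32.1 FPKM in C, 30.8 and 26.2 in N and 34.3 and 28.6 in NP. All groups overlapped, with a log2 difference of -0.13 between N and C (95% interval -0.47 to 0.21, and 0.04 at the same total) and 0.14 between NP and N (95% interval -0.21 to 0.48).

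*Camk2d* encodes the delta chain of calcium/calmodulin-dependent kinase II, which phosphorylates the release channel and phospholamban, on chromosome 3 (126595487 to 126846326). It was at 37.4 and 40.1 FPKM in C, 33.4 and 35.6 in N and 34.8 and 39.5 in NP. The N libraries lay below the C libraries but overlapped the NP libraries. The N group differed from the C group by -0.16 ± 0.12 (SE, log2, limma, adjusted *P* = 0.572), which was 0.01 at the same total and 0.32 relative to the contractile list.

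The second comparison, NP against N, asks what pemafibrate did on top of the diet, and it shares the N libraries with the first. Here 1.39% of all genes were called, all of them lower in the NP group, and no member was. All 9 members had a higher mean in the NP group with the values as deposited, at the same total and at the same median, 7 did under quantile normalization, 8 with the length trend removed and 3 relative to the contractile list. Their median difference was 0.16, against 0.03 over all genes, of which 44% were lower. In 3 of the 9 (*Hrc*, *Casq2* and *Ryr2*) both NP libraries lay above both N libraries, where 15.2% of all genes did so. None of the 9 had an unadjusted *P* under 0.05, beside 8.04% of all genes. The N and NP libraries were deposited under names of different kinds, one shared by both replicates 1 and the other by both replicates 2, and the labels do not say what the kinds mean. Within both of these sets 8 of 9 members, all but *Jph2*, were higher in the NP library with the values as deposited, as were 33.6% of all genes. The median over the members was 0.15 in replicate 1 and 0.17 in replicate 2, against 0.02 over all genes in each. *Ryr2* differed by 0.70 in replicate 1 and 0.24 in replicate 2, and *Hrc* by 0.23 and 0.37. *Atp2a2* (0.18 and 0.16) and *Pln* (0.07 and 0.06) had nearly equal differences in both sets, although their groups overlapped. The 12 contractile genes were all higher in the NP group too, with a median of 0.17 and 6 without overlap. Their sum was 77629 to 80252 FPKM in the N group and 80655 to 93057 in the NP group, against 102078 to 105845 in the C group. Between N and C the contractile genes differed unevenly, by -0.83 for *Myl2*, -0.65 for *Myl3* and -2.1e-05 for *Actc1*. The atrial sum was higher in N and NP than in C. Whether cardiomyocytes held less contractile RNA, made up less of the tissue or came from other chambers cannot be told apart in bulk libraries. The part of the contractile level in the members' differences was not tested beyond the scaling given here.

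**Figure D3:**
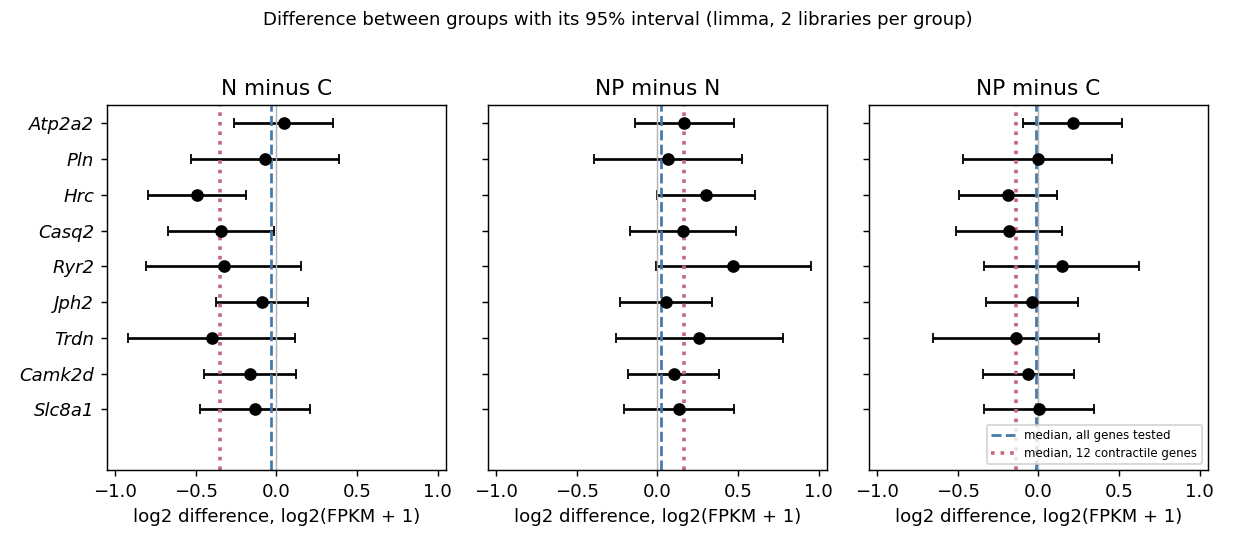
Fitted log2 difference of each member between N and C, NP and N, and NP and C, with 95% intervals from limma (horizontal axis, log2(FPKM + 1)). The dashed line is the median of all genes tested and the dotted line that of the 12 contractile genes. The intervals of *Hrc* and *Casq2* between N and C lie below 0, and the other intervals include 0.

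**Figure D4:**
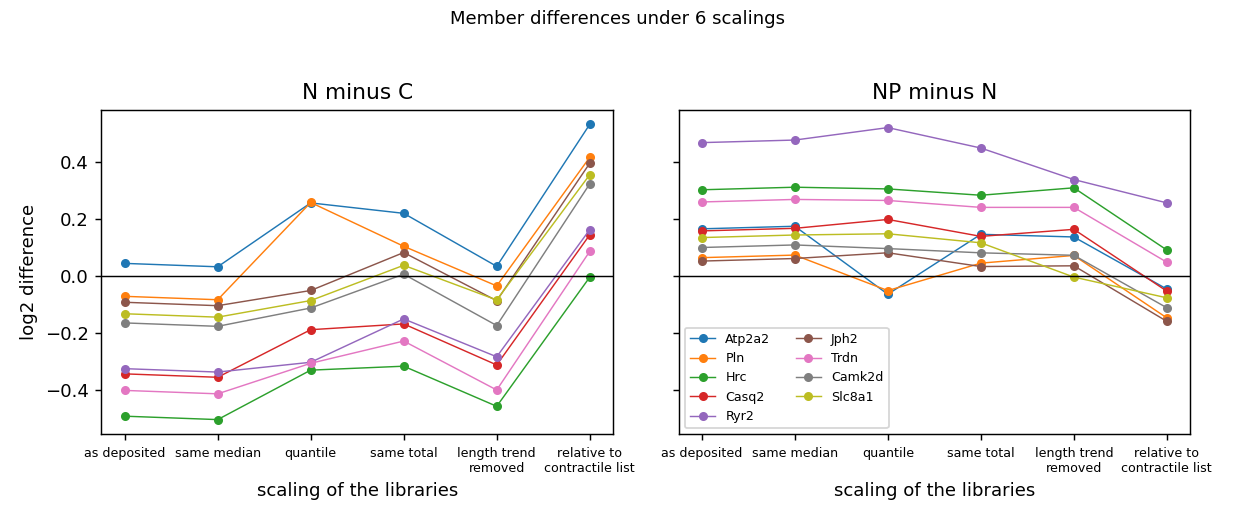
Log2 difference of each of the 9 members (lines) under 6 scalings of the libraries, for N against C and NP against N. Between N and C, 8 of 9 lie below 0 with the values as deposited, 4 at the same total and 1 relative to the contractile list.

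Against the C group, the NP libraries left 3 members with a higher and 6 with a lower mean, and the median difference was -0.04. At the same total, 7 were higher, and relative to the contractile list all 9 were. Apart from *Atp2a2*, *Hrc* was the one member whose NP and C libraries did not overlap, with a lower NP level (difference -0.19, log2, limma, adjusted *P* = 0.759, and 0.09 relative to the contractile list). Between these groups 42.5% of all genes did not overlap.

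Ratios between members do not change with a factor applied to a whole library, and were computed after the values were seen. The level of *Ryr2* per *Atp2a2* was 0.0378 and 0.0354 in C, 0.0278 and 0.0288 in N and 0.0401 and 0.0305 in NP. The N libraries thus had the least release channel RNA per pump RNA, without overlap with either other group, though NP replicate 2 lay close to them. A ratio does not remove a trend on transcript length, and the longest transcripts have 16814 bases for *Ryr2* and 5674 for *Atp2a2*. The part of length in this ratio was not tested. In reverse, there were 26.4 and 28.3 *Atp2a2* per *Ryr2* in the C group and 36.0 and 34.7 in the N group. Of the 36 ratios between members, 21 did not overlap between the N and C groups (49.1% of the ratios of all pairs of genes with a mean of at least 10 FPKM did not), 7 between NP and N (27.1%) and 9 between NP and C (43.3%).

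The members did not share 1 profile. Over the 6 libraries, the Pearson correlation of a member with the mean of the other 8 was 0.849 for *Hrc*, 0.768 for *Casq2*, 0.745 for *Camk2d*, 0.543 for *Trdn*, 0.407 for *Slc8a1*, 0.361 for *Ryr2*, 0.255 for *Jph2*, 0.195 for *Pln* and 0.006 for *Atp2a2*, given as a description over libraries that share depth with diet. The value was highest for the genes of the luminal calcium-binding proteins and near 0 for that of the pump. Among 5652 genes with a mean of at least 10 FPKM, those whose levels went most closely with the mean of the 9 were *Limch1* (Pearson r = 0.992), *Grb14* (0.988), *Ppdpf* (0.984), *Ccdc141* (0.984) and *Strip2* (0.98). They were picked as the highest of 5652 values over only 6 libraries, so the size of r carries no weight. The mean also describes some members poorly, as the correlations above show.

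Around the 9 members, a wider list held 90 further genes of calcium handling, of which 89 were found and 84 tested. Between N and C, 36 were higher and 48 lower, with a median of -0.07, and *Sln* alone was called. Of the release complex (channel partners and luminal proteins), 10 of 16 were higher (median 0.06), of the dyad 2 of 10 (-0.10), of uptake 7 of 11 (0.16), of sarcolemmal entry and exchange 7 of 14 (0.02), of kinases, phosphatases and cAMP enzymes 6 of 22 (-0.13), and of mitochondrial calcium 4 of 11 (-0.19). Between NP and N, 57 were higher and 27 lower (median 0.04), and none was called by limma, with 4 higher and 2 lower at an unadjusted *P* under 0.05, where 285 of all 12923 genes were higher and 754 lower. At that level 9 of the list were higher and 8 lower between N and C, beside 1065 and 873 of all genes. Between NP and N, entry and exchange had 12 of 14 higher (median 0.12) and the dyad 8 of 10 (0.07).

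Further genes given by the rule for naming did not pass the test. *Cacna1h*, a T-type calcium channel, was at 1.69 and 2.67 FPKM in C, 4.85 and 4.82 in N and 6.18 and 6.97 in NP. Its levels in both groups on the diet were above the C group without overlap, by 0.89 for N (limma, adjusted *P* = 0.0895) and 1.27 for NP (adjusted *P* = 0.189). *S100a1*, a calcium sensor that binds the release channel and the pump, was at 1313 and 1283 FPKM in C, 877 and 1043 in N and 976 and 1066 in NP, with a log2 difference of -0.44 between N and C (adjusted *P* = 0.204), which relative to the contractile list was 0.05. *Camk2a*, a sister chain of the kinase, was at 19.1 and 19.8 FPKM in C, 16.3 and 14.5 in N and 19.3 and 21.3 in NP. *Camk2b*, another chain, was at 4.92 and 4.32 FPKM in C, 3.49 and 2.94 in N and 4.41 and 4.95 in NP. Both chains thus had their lowest libraries in the N group, with differences of -0.32 and -0.42 between N and C (limma, adjusted *P* = 0.275 and 0.236), which were 0.16 and 0.07 relative to the contractile list, and 0.38 and 0.43 between NP and N (adjusted *P* = 0.378 and 0.392). *Ccdc109b*, the older symbol of *Mcub*, which encodes the inhibitory subunit of the mitochondrial calcium uniporter, went the other way, with 0.74 between N and C and -0.62 between NP and N (limma, adjusted *P* = 0.131 and 0.310). It was at 1.67 and 1.41 FPKM in C, 3.78 and 2.78 in N and 1.53 and 2.01 in NP. *Pde3b*, a phosphodiesterase that is also abundant in adipocytes, had a difference of 0.84 between N and C (limma, adjusted *P* = 0.191). It was at 1.32 and 1.16 FPKM in C, 2.87 and 3.17 in N and 1.45 and 2.95 in NP. Both levels are low, and with a pseudocount of 0.1 the N against C differences were 1.03 for *Ccdc109b* and 1.22 for *Pde3b*. Relative to the contractile list, all 3 of *Cacna1h*, *Ccdc109b* and *Pde3b* passed the test between N and C, with differences of 1.38, 1.23 and 1.33, but so did 5582 of 12923 genes, 5557 of them higher, with a median of 0.46 over all genes. *Cacna1h* also passed at the same total (1.02, adjusted *P* = 0.040). With the replicate number as a block between N and NP, where 1100 genes were called between N and C, *Cacna1h*, *S100a1* and *Pde3b* passed (limma, adjusted *P* = 0.0412, 0.0316 and 0.0449). The sums of 8 macrophage genes, given above, and of 8 adipocyte genes, which were 3.34 to 25.4 FPKM in C, 120 to 201 in N and 17.0 to 98.7 in NP, were also highest in the N group, and their part in these values was not tested. The rule also gave the phosphatase regulators *Ppp1r1a* and *Ppp1r3a* and *Atp2a1*, the pump of fast skeletal muscle, none of which passed the test. *Rrad*, which restrains the L-type channel, was at 122 and 95.6 FPKM in C, 133 and 47.0 in N and 102 and 64.1 in NP, and *Rcan1*, a calcineurin regulator, was at 93.1 and 67.4 FPKM in C, 100.4 and 37.1 in N and 66.6 and 38.3 in NP. In both, replicate 1 was higher than replicate 2 in each group, and the N and C groups overlapped.

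**Figure D5:**
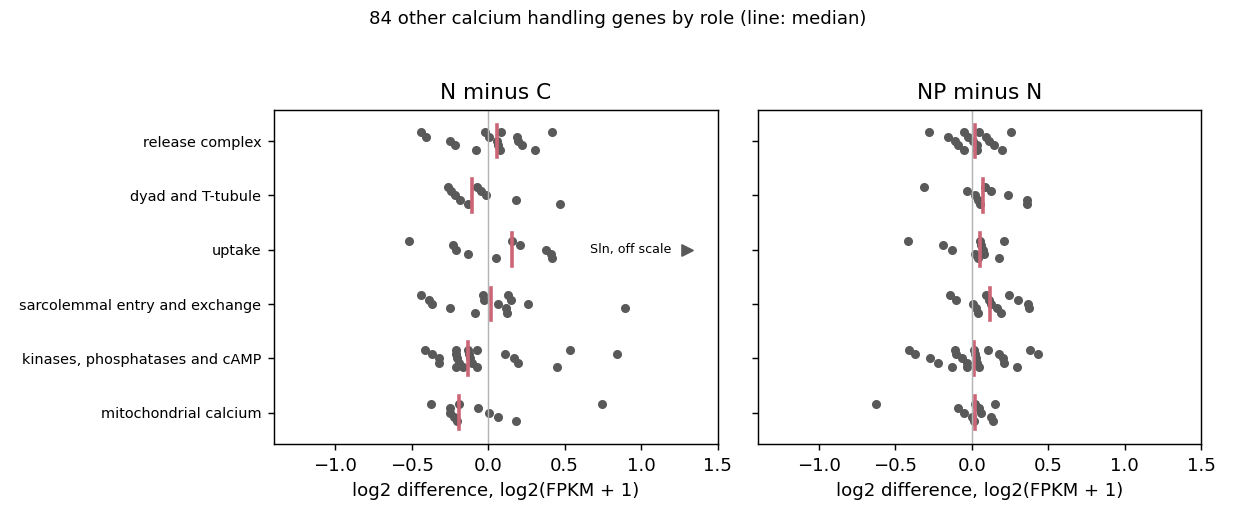
Log2 difference of 84 further calcium handling genes (points) by role, between N and C and between NP and N, with the median of each role as a line. *Sln*, at 8.15 between N and C, is off the scale and drawn as an arrow, and most other genes lie within 0.5 of 0.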

How the data were processed

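RNA of mouse heart was sequenced in 6 libraries (75-base single-end reads, stranded mRNA kit), with groups taken from the diet and dose in the labels. Per the labels and the study's methods, the authors mapped reads to mm10 with TopHat2 2.0.13, Bowtie2 2.2.3 and SAMtools 0.1.19 and computed FPKM with Cufflinks 2.2.1. The deposited values are FPKM per gene and library, and read counts were not used here. Read depth was taken from the step size of low FPKM values (up to 5 reads), of which 75.0% to 79.4% were within 0.1 of a whole read, too few for a count test.

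From these, log2(FPKM + 1) was computed without further scaling, and 12923 genes (mean FPKM over the 6 libraries of 0.5 or more) were tested with limma 3.58.1 in R 4.3.3 (3 groups, 3 residual degrees of freedom, prior variance with a trend on the mean). *P* values were adjusted by Benjamini-Hochberg over all genes tested, with a threshold of 0.05. An exact permutation test of 2 against 2 libraries cannot go below 0.333 and was not used. Differences, intervals and folds are on the log2(FPKM + 1) scale, which understates low genes. The test was tried on simulated data first. Those data were independent normal draws without differences in depth or composition between libraries, so the trial does not cover such differences. Of the wider list, the genes named are those past the threshold and, in each comparison, the 3 with the highest and the 3 with the lowest difference, apart from 1 that is not reported here. Ratios between members and the choice of promoters to print came after the values were seen. Likeness used Pearson's r over the 6 libraries. Positions and promoters are those of RefSeq in GRCm38.p6, and scripts used Python 3.11.15. The members and all lists were chosen with earlier results of these data known. Alternatives were other pseudocounts, filters, scalings, designs and single libraries left out, and the removal of a trend on transcript length and the differences within same-numbered N and NP libraries were added after seeing the data.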

Additional observations from a re-analysis of the deposited data

How the results depend on the processing

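Of 18 alternatives for each of the 9 members, 145 of 162 results kept direction and side of the threshold between N and C. The count was 150 of 162 between NP and N and 138 of 162 between NP and C. Many alternatives cannot change a log2 difference. These are the filters, the prior without a trend, only the groups compared, the replicate blocks and leaving out a library of the third group. Direction was fixed in advance for those, so the counts do not measure how stable the directions are. Depth was lowest in the N and NP groups, and 2 libraries per group limit every comparison.

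The number of genes called between N and C (200) was 132 with a mean FPKM of at least 5, 313 at the same total and 5582 relative to the contractile list. Between NP and N (179) it was 101 with a mean of at least 5, 288 relative to the contractile list and 78 with only the groups compared. Between NP and C (5) it was 12 with a pseudocount of 0.1, 16 without a filter, 10 with a mean of at least 5, 10 at the same total, 28 relative to the contractile list and 8 with the length trend removed. Leaving out 1 library gave 49 to 183 calls between N and C (49 without C replicate 2, 125 without N replicate 1 and 82 without N replicate 2), 67 to 108 between NP and N (fewer than 179 whichever library was left out) and 5 to 101 between NP and C (101 without C replicate 1, 12 without C replicate 2 and 14 without NP replicate 1). Relative to the contractile list, 2 members were called between N and C (*Atp2a2* at 0.53, adjusted *P* = 0.0249, and *Jph2* at 0.40, adjusted *P* = 0.0473, limma), and the median of the members was 0.32 between N and C, -0.052 between NP and N and 0.24 between NP and C. Of the wider list, 2 were called between N and C at the same total and 39 relative to the contractile list, and between NP and C 0 without a filter and 2 relative to the contractile list.

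Replicate numbers were checked for pairing. Same-numbered libraries deviated together with Pearson r = 0.0471 between C and N, 0.124 between C and NP and 0.458 between N and NP. The Spearman values were 0.23, 0.263 and 0.555. As the values with C were the lower ones, the numbers were not taken as pairs over the 3 groups. For N and NP, the same-numbered libraries have names of the same kind, and what the kinds mean is not given in the labels. With the replicate block, 328 genes were called between N and C and 20 between NP and C, and 2 of the wider list between N and C. With a replicate block for N and NP only, 1100 genes were called between N and C (596 higher and 504 lower), 301 between NP and N and 55 between NP and C, with 6 of the wider list and 1 member, *Hrc* (adjusted *P* = 0.0329), between N and C.

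At the same total, differences that reversed were those of *Camk2d* (0.0075), *Jph2* (0.084), *Pln* (0.11) and *Slc8a1* (0.039) between N and C, and *Camk2d* (0.090), *Jph2* (0.12), *Pln* (0.15) and *Trdn* (0.015) between NP and C. Under quantile normalization these were *Pln* between N and C (0.26), *Atp2a2* (-0.063) and *Pln* (-0.050) between NP and N, and *Casq2* (0.012), *Jph2* (0.033) and *Pln* (0.21) between NP and C. Relative to the contractile list they were *Camk2d* (0.32), *Casq2* (0.15), *Jph2* (0.40), *Pln* (0.42), *Ryr2* (0.16), *Slc8a1* (0.36) and *Trdn* (0.087) between N and C, *Atp2a2* (-0.045), *Camk2d* (-0.11), *Casq2* (-0.052), *Jph2* (-0.16), *Pln* (-0.15) and *Slc8a1* (-0.076) between NP and N, and *Camk2d* (0.21), *Casq2* (0.093), *Hrc* (0.089), *Jph2* (0.24), *Pln* (0.27) and *Trdn* (0.14) between NP and C. Of the other genes named, *S100a1* (0.048), *Camk2a* (0.16) and *Camk2b* (0.072) reversed between N and C relative to the contractile list, and *Sln* between NP and N (-0.031). With the length trend removed the differences that reversed were *Slc8a1* between NP and N (-0.0027), and *Pln* (0.040) and *Slc8a1* (-0.086) between NP and C. The cause was not tested.

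Leaving out 1 library also reversed some of the small differences. The range was -0.034 to 0.13 for *Atp2a2* and -0.23 to 0.092 for *Pln* between N and C. Between NP and N it was -0.097 to 0.23 for *Pln*, -0.012 to 0.12 for *Jph2* and -0.26 to 0.62 for *Sln*. Between NP and C it was -0.15 to 0.028 for *Camk2d*, -0.12 to 0.045 for *Jph2*, -0.17 to 0.16 for *Pln*, -0.14 to 0.43 for *Ryr2*, -0.12 to 0.13 for *Slc8a1* and -0.37 to 0.094 for *Trdn*. For *Ryr2* and *Trdn*, the value that reversed was the one without NP replicate 1 (-0.14 and 0.094).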
